A study of Mus musculus with 15 samples.

Results

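The chains of the receptors through which CD8 T cells sense interleukin-2 (IL-2), IL-15, IL-21, IL-12, IL-18 and interferon gamma were followed here in poly(A) RNA of antigen-specific mouse CD8+ T cells. They comprise 10 genes, Il2ra, Il2rb, Il2rg, Il15ra, Il21r, Il12rb1, Il12rb2, Il18r1, Il18rap and Ifngr1, chosen by symbol and matched to gene identifiers of GENCODE release M21, out of 55536 gene identifiers in the count table. The series asked what costimulation does to the transcriptome and to splicing of CD8+ T cells primed in vivo. Cells of OT-I mice, which carry a transgenic T cell receptor for the ovalbumin peptide SIINFEKL, were transferred into C57BL/6J recipients, so that the target cells were of 1 known specificity and not of a natural repertoire. Markers of other cells in the libraries are given below. Ag recipients were given the peptide with control rat IgG, and Ag+Costim recipients the peptide with agonist antibodies against OX40 (CD134) and 41BB (CD137). Donor cells were sorted from spleen and lymph nodes as CD8+, CD45.1+, Vα2+ and Vβ5+ cells on day 4 by the labels, and somewhat earlier by the methods of the study, from mice of both sexes whose ages covered a range. Each group had 5 libraries. The labels also list 5 libraries of naive OT-I cells, which were not analysed here, so that no value below is relative to a resting cell.

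Most of these receptors share chains. The IL-2 receptor is built from Il2ra, Il2rb and the common gamma chain Il2rg, the IL-15 receptor replaces the alpha chain with Il15ra, and the IL-21 receptor pairs Il21r with Il2rg. All of these signal through the kinases Jak1 and Jak3, whereas Il12rb1 and Il12rb2 use Tyk2 and Jak2 to activate Stat4, Il18r1 and Il18rap belong to the IL-1 receptor family and signal through Myd88, and Ifngr1 pairs with Ifngr2. In CD8 T cells, IL-2 and IL-15 are known for proliferation and survival, and IL-12 and IL-18 for interferon gamma production.

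Libraries of the Ag group differed more among themselves than Ag+Costim libraries. Totals of the estimated counts lay between 59.6 and 639.1 M (mega counts), and the number of genes with a count ran from 20714 to 51778 in Ag and from 28727 to 30340 in Ag+Costim libraries. Ag 1, Ag 3 and Ag 4 had more genes with a count than any Ag+Costim library, and results are therefore also given without these 3. Those results rest on Ag 2 and Ag 5 for the Ag group. With 21779 and 20714 genes, Ag 2 and Ag 5 had fewer genes with a count than any Ag+Costim library. The summed level of 9 proliferation genes was 708, 5281, 3300, 743 and 5888 CPM (counts scaled to a common library total adjusted by the TMM factors of edgeR) in Ag 1 to Ag 5, and 5186 to 6425 CPM in the Ag+Costim libraries, so that Ag 1 and Ag 4 stood apart. The defining markers of the sorted cells were present in every library, with 7 T cell and CD8 markers summing to 4233 to 8117 CPM in Ag and 5870 to 6869 CPM in Ag+Costim libraries. Markers of other cells were lower but uneven. The 5 B cell markers summed to 17.5 to 293 CPM in Ag and 14.4 to 31.9 CPM in Ag+Costim libraries, the 6 erythroid markers to 14.7 to 1103 and 3.8 to 39.8 CPM, and the 4 natural killer (NK) cell markers to 2.09 to 23.2 and 0.537 to 2.25 CPM. Myeloid markers (7) summed to 48.7 to 115 and 80.1 to 163 CPM, dendritic cell markers (5) to 18 to 95.8 and 55.3 to 113 CPM, and CD4 T cell markers (4) to 3.74 to 26.4 and 3.16 to 8.2 CPM. Itgax made up most of the dendritic cell sum, with a mean of 82.6 CPM for Ag+Costim against 49.1 for Ag. Flt3, Siglech, Zbtb46 and Xcr1, the rest of that list, had means of at most 2.49 CPM, each lower for Ag+Costim. Without Ag 1, Ag 3 and Ag 4 each of them was higher for Ag+Costim, and every gene of the list overlapped between the groups. No marker of these lists was at 0 in all libraries. The part of these differences in the receptor values was not tested.

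Gene counts were compared between Ag+Costim and Ag with the quasi-likelihood test of edgeR over 24262 genes and Benjamini-Hochberg (BH) adjustment over all of them. No receptor passed an adjusted p of 0.05, and neither did any other gene (0% of genes tested), although 4501 genes had an unadjusted p under 0.05. By that unadjusted p 2 of the 10 receptors were higher in Ag+Costim, Il18rap and Il2rb, as were 7.89% of all genes tested. In 3 of the 10, namely Il2rb, Il12rb2 and Il18rap, every Ag+Costim library exceeded every Ag library, which held for 4.48% of all genes tested and for 11.3% of the 8626 genes with a mean of at least 10 CPM, a level that all 10 receptors reached. With the Wald test of DESeq2, Il2rb and Il18rap were called higher, 2 of 10 against 2.58% of genes with an adjusted p. The same 2 were called by edgeR without Ag 1, Ag 3 and Ag 4, against 7.51% of genes. With limma voom and a quality weight per library, 7 of 10 were called higher, all except Il2rg, Il21r and Il18r1, against 25.8% of genes. The weights were 1.42, 0.0986, 0.508, 2 and 0.0656 for Ag 1 to Ag 5 and 1.7 to 3.35 for the Ag+Costim libraries, so that this fit set Ag+Costim mainly against Ag 1 and Ag 4, which stood apart in proliferation genes. The median log2 fold change (log2FC, Ag+Costim over Ag) was 0.42 over the 10 receptors, 0.24 over genes of at least 10 CPM and -0.32 over all genes tested. All CPM values, above and below, are scaled with TMM factors. With total counts in place of these factors the median of genes of at least 10 CPM moved from 0.24 to 0.00, so that fold changes near 0 had no settled direction. Without a filter on low counts that median was 0.56, and the log2FC of all 10 receptors was larger.

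**Figure D1:**
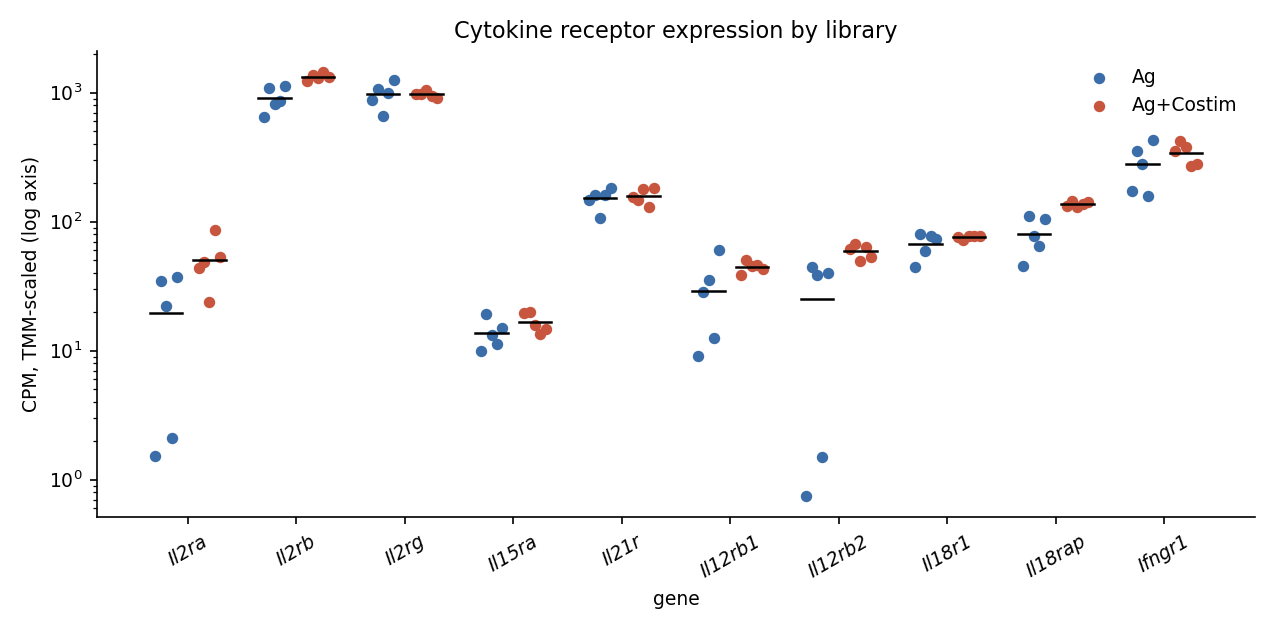
TMM-scaled CPM (log axis) of the 10 receptor genes in each of the 5 Ag (blue) and 5 Ag+Costim (red) libraries, with a black line at the group mean and the libraries 1 to 5 placed from left to right in each column. Il2ra and Il12rb2 were at 0.746 to 2.12 CPM in Ag 1 and Ag 4, and Il2rb, Il12rb2 and Il18rap were higher in every Ag+Costim library than in any Ag library.

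Il2rb (ENSMUSG00000068227.9, chr15:78479256-78495271 of mm10, minus strand), the chain shared by the IL-2 and IL-15 receptors, was 1.47 times as high in Ag+Costim as in Ag. It reached 652, 1091, 812, 861 and 1117 CPM in Ag 1 to Ag 5 (907 ± 196, SD, n = 5) and 1228, 1367, 1305, 1447 and 1311 CPM in Ag+Costim 1 to 5 (1331 ± 81.3, SD, n = 5). All 5 Ag+Costim libraries lay above the highest Ag library. The log2FC was 0.55 ± 0.18 (SE), with an adjusted p of 0.227 by edgeR and 0.00965 by DESeq2. Against Ag 2 and Ag 5 alone the log2FC was 0.30, with an adjusted p of 0.0445 by edgeR. It was 0.31 with total counts.

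Il2ra (ENSMUSG00000026770.5, chr2:11642807-11693193, plus strand), the alpha chain that gives the IL-2 receptor high affinity, had a log2FC of 1.38 ± 0.79 (SE). Its levels were 1.52, 34.4, 22.3, 2.12 and 37.4 CPM in Ag 1 to Ag 5 and 43.5, 48.5, 23.8, 85.5 and 52.9 CPM in Ag+Costim 1 to 5. Ag 1 and Ag 4, the libraries with the lowest proliferation sums, were the low ones, 4 of 5 Ag+Costim libraries lay above every Ag library, and Ag+Costim 3 lay among the upper Ag libraries. The adjusted p was 0.316 by edgeR and 0.141 by DESeq2, and the weighted voom fit, which rests mainly on Ag 1 and Ag 4 for the Ag group, gave a log2FC of 4.36 with an adjusted p of 0.000143. Without Ag 1, Ag 3 and Ag 4 the log2FC was 0.54 (adjusted p = 0.384, edgeR). The gene overlaps the annotated model Gm37881 on the same strand, with no shared exon base.

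Il2rg (ENSMUSG00000031304.18, chrX:101264378-101268255, minus strand), the common gamma chain, had near-equal means of 968 ± 218 CPM (SD, n = 5) in Ag and 969 ± 54.8 CPM (SD, n = 5) in Ag+Costim. Libraries ranged from 656 to 1245 CPM in Ag and from 907 to 1055 CPM in Ag+Costim, and the Ag+Costim values all lay within the Ag range. The log2FC of 0.00 ± 0.18 (SE, adjusted p = 0.996, edgeR) became -0.25 with total counts, -0.23 with upper quartile scaling and -0.12 with DESeq2 size factors. Of the 1670 bases of its main transcript, 728 are shared with the same-strand gene model Gm20489, which held 0.0485 CPM at most. Il21r (ENSMUSG00000030745.9, chr7:125603429-125633570, plus strand), its partner in the IL-21 receptor, was likewise near level, at 106 to 182 CPM in Ag and 130 to 181 CPM in Ag+Costim libraries. Its log2FC was 0.07 ± 0.17 (SE, adjusted p = 0.818, edgeR) and -0.20 with total counts.

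Il15ra (ENSMUSG00000023206.16, chr2:11705290-11734317, plus strand), the chain that presents IL-15, was the lowest of the 10 in Ag+Costim per unit of length. CPM values were 9.92 to 19.2 in Ag and 13.5 to 20 in Ag+Costim libraries, the groups overlapped, and the log2FC was 0.29 ± 0.20 (SE, adjusted p = 0.389, edgeR), 0.05 with total counts and -0.01 without Ag 1, Ag 3 and Ag 4.

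Il12rb2 (ENSMUSG00000018341.12, chr6:67291318-67376188, minus strand), the inducible signalling chain of the IL-12 receptor, followed Il2ra among the Ag libraries. It was at 0.746, 44.5, 38.3, 1.5 and 39.9 CPM in Ag 1 to Ag 5 (25 ± 21.9, SD, n = 5) and at 61.4, 67.7, 49.2, 63.6 and 53.4 CPM in Ag+Costim 1 to 5 (59 ± 7.58, SD, n = 5). Ag 1 and Ag 4 were again the low libraries, and the other 3 Ag libraries came close to the lowest Ag+Costim library without reaching it. The log2FC was 1.24 ± 0.89 (SE), with an adjusted p of 0.393 by edgeR and 0.238 by DESeq2, and 5.34 with an adjusted p of 2.84e-05 in the weighted voom fit, for which the same holds as for Il2ra. Without Ag 1, Ag 3 and Ag 4 it was 0.51 (adjusted p = 0.0537, edgeR). With total counts the groups overlapped. Il12rb2 shares 819 of the 2998 exon bases of its main transcript with Serbp1 on the opposite strand. The kit does not mark strand, so reads in those bases cannot be told apart, and Serbp1 lay between 261 and 842 CPM. Serbp1 differed in the same direction as Il12rb2, with a higher mean for Ag+Costim (710 CPM) than for Ag (461 CPM), a log2FC of 0.62. In Ag 1 Serbp1 was at 261 CPM and Il12rb2 at 0.746 CPM. The part of Serbp1 reads in the Il12rb2 difference was not tested.

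Il12rb1 (ENSMUSG00000000791.9, chr8:70808449-70821424, plus strand), the chain common to the IL-12 and IL-23 receptors, was at 9.16, 28.4, 35.6, 12.6 and 60.3 CPM in Ag 1 to Ag 5 and at 38.5, 50.4, 45.5, 46 and 43.3 CPM in Ag+Costim 1 to 5. Ag 5 was the highest of all 10 libraries and Ag 1 and Ag 4 the lowest, so that the groups overlapped. The log2FC of 0.62 ± 0.43 (SE, adjusted p = 0.384, edgeR) was 0.06 without Ag 1, Ag 3 and Ag 4.

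Il18rap (ENSMUSG00000026068.11, chr1:40515362-40551705, plus strand), the signalling accessory chain of the IL-18 receptor, was 1.7 times as high in Ag+Costim as in Ag and had the lowest unadjusted p of the 10. It was at 45, 111, 77.1, 64.7 and 105 CPM in Ag 1 to Ag 5 (80.6 ± 27.7, SD, n = 5) and at 132, 145, 129, 136 and 143 CPM in Ag+Costim 1 to 5 (137 ± 6.63, SD, n = 5). All Ag+Costim libraries were above all Ag libraries, and Ag 1 and Ag 4, with the lowest proliferation sums, were the lowest. The part of proliferation in this difference was not tested. The log2FC was 0.77 ± 0.23 (SE), with an adjusted p of 0.209 by edgeR and 0.0169 by DESeq2. Without Ag 1, Ag 3 and Ag 4 it was 0.37 (adjusted p = 0.0295, edgeR), and with total counts 0.56 (adjusted p = 0.216, edgeR).

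Il18r1 (ENSMUSG00000026070.15, chr1:40465552-40500854, plus strand), the IL-18 binding chain and the neighbour of Il18rap on the same strand, overlapped between the groups. Its levels were 44.7, 79.6, 59.1, 77.3 and 73.3 CPM in Ag 1 to Ag 5 and 75.9, 72.7, 77.9, 77 and 77.2 CPM in Ag+Costim 1 to 5. The Ag+Costim libraries were close together, with a coefficient of variation of 2.72%, and lay within the range of the Ag libraries. The log2FC was 0.19 ± 0.16 (SE, adjusted p = 0.471, edgeR), -0.06 with total counts and 0.52 without a filter on low counts, where the groups did not overlap.

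Ifngr1 (ENSMUSG00000020009.13, chr10:19591949-19610229, plus strand), the ligand-binding chain of the interferon gamma receptor, was at 173, 352, 281, 157 and 433 CPM in Ag 1 to Ag 5 and at 355, 422, 382, 269 and 281 CPM in Ag+Costim 1 to 5. Ag 1 and Ag 4 were the 2 lowest libraries and Ag 5 the highest. The log2FC was 0.29 ± 0.29 (SE, adjusted p = 0.525, edgeR) and -0.17 without Ag 1, Ag 3 and Ag 4. Its partner Ifngr2, which is needed for signalling, was low and lay the other way. Ifngr2 was at 8.64, 3.94, 8.44, 4.9 and 3.36 CPM in Ag 1 to Ag 5 and at 1.74, 1.23, 2.21, 1.09 and 1.77 CPM in Ag+Costim 1 to 5. Each Ag+Costim library was below each Ag library, as for 1.13% of all genes tested, with a log2FC of -1.86 ± 0.35 (SE, adjusted p = 0.134, edgeR; 1.03e-05, DESeq2). It was -1.15 without Ag 1, Ag 3 and Ag 4 (adjusted p = 0.0465, edgeR) and -2.24 with total counts. In such bulk RNA, fewer cells of a type and less RNA per cell cannot be told apart.

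**Figure D2:**
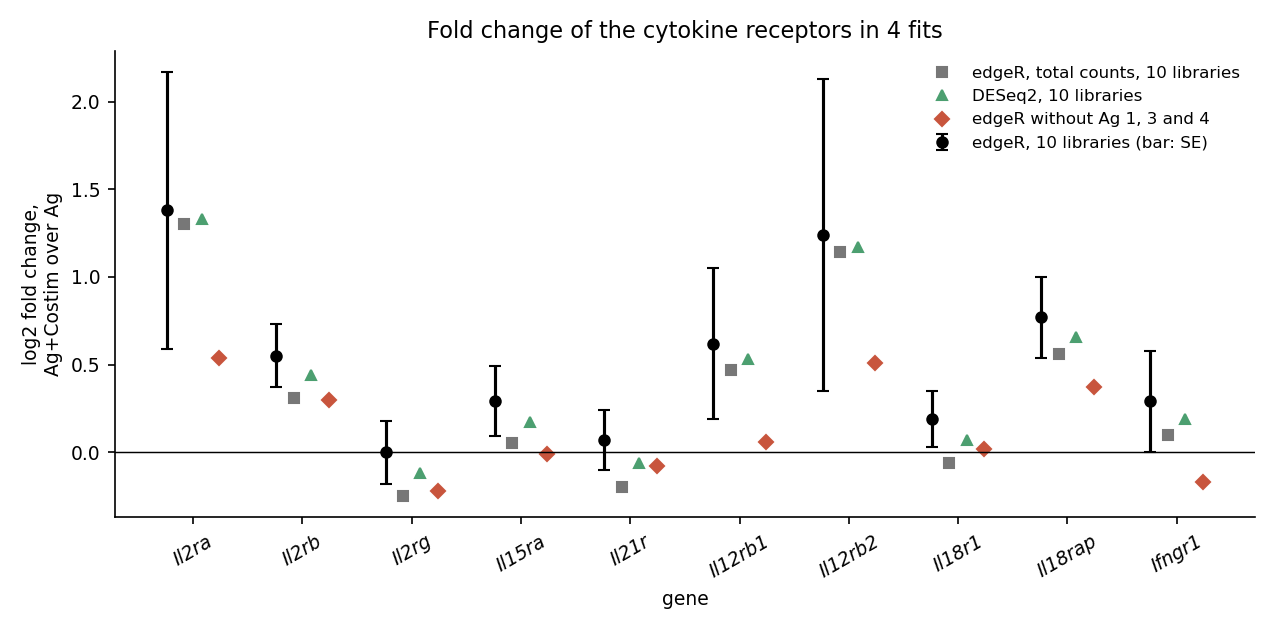
Log2FC (Ag+Costim over Ag) of each receptor from edgeR with TMM factors (black, bars are SE), edgeR with total counts (grey), DESeq2 (green) and edgeR without Ag 1, Ag 3 and Ag 4 (red). Without these 3 libraries Il2ra moved from 1.38 to 0.54 and Il12rb2 from 1.24 to 0.51, and Il2rb and Il18rap stayed above 0 in the 4 fits.

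**Figure D3:**
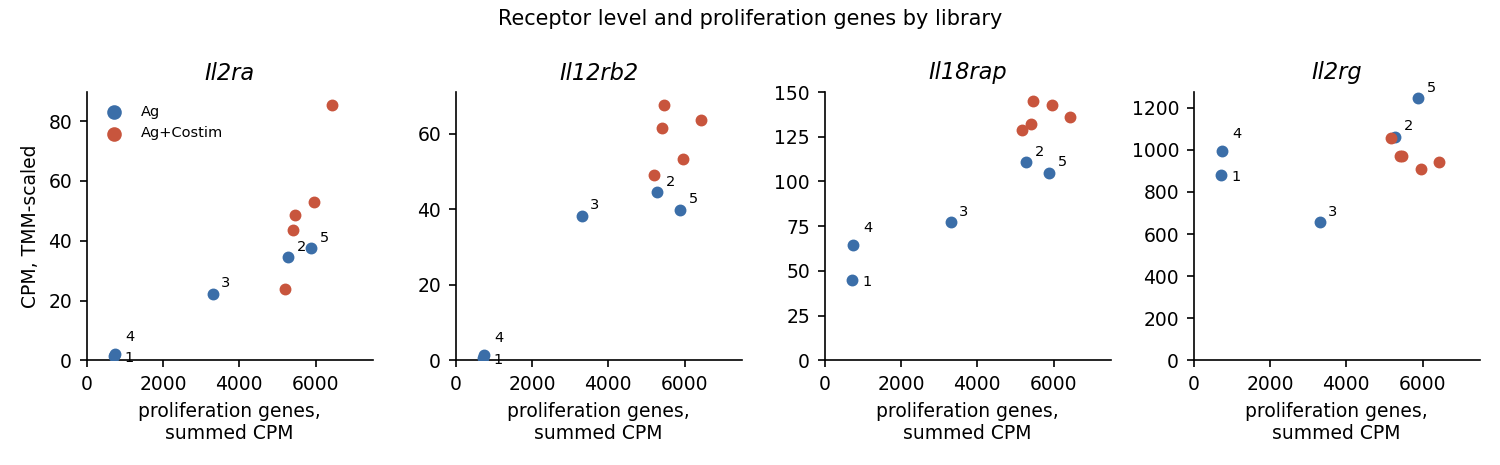
CPM of Il2ra, Il12rb2, Il18rap and Il2rg against the summed CPM of 9 proliferation genes in each library (linear axes, blue Ag with its replicate number, red Ag+Costim). Ag 1 and Ag 4, at 708 and 743 CPM of proliferation genes, held 1.52 and 2.12 CPM of Il2ra, and the 2 lowest values of Il18rap, 45 and 64.7 CPM.

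To set levels side by side between genes, values scaled for length (TPM) were computed from transcript counts and annotated lengths. The 4 highest receptors had the same order in both groups and no overlap between neighbours in it. Il2rg led with 1019 ± 216 TPM in Ag and 917 ± 52.8 TPM in Ag+Costim (SD, n = 5 each), followed by Il2rb with 363 ± 35.6 and 487 ± 24.9 TPM, Ifngr1 with 217 ± 45.1 and 251 ± 50 TPM, and Il21r with 108 ± 25.5 and 101 ± 14 TPM. The signalling chains of the IL-2 and IL-15 receptors thus lay far above the alpha chains Il2ra, at 7.23 ± 5.67 and 18.9 ± 7.86 TPM, and Il15ra, at 15.3 ± 3.02 and 16.6 ± 2.63 TPM. Below Il21r, each neighbour overlapped with the next in Ag, from Il18r1 (34.6 ± 7.68 TPM) and Il18rap (27.8 ± 4.54 TPM) over Il12rb1 (16.3 ± 8.58 TPM), Il15ra and Il12rb2 (12.5 ± 11.1 TPM) to Il2ra. In Ag+Costim, Il18rap followed Il21r with 43.8 ± 2.4 TPM, above Il18r1 with 36.2 ± 2.08 TPM in every library, and Il12rb2 (30.1 ± 3.85 TPM), Il12rb1 (24.4 ± 2.28 TPM), Il2ra and Il15ra followed with overlaps between neighbours. Per unit of length, Il2rb (325 to 419 against 453 to 517 TPM), Il12rb2 (0.557 to 23.8 against 25 to 34.8 TPM) and Il18rap (20.9 to 33.1 against 40.9 to 46.6 TPM) also had no overlap between the groups.

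The ratio of 2 chains within a library does not depend on how libraries are scaled to each other. For 6 pairs, the log2 ratio of counts was compared by exact permutation (two-sided) of all 252 ways to assign the libraries to the groups, with 0.0079 as the smallest p. Il18rap to Il18r1 was the pair that passed after BH adjustment over the 6. Its log2 ratio was 0.01, 0.48, 0.38, -0.26 and 0.52 in Ag 1 to Ag 5 (0.23 ± 0.34, SD, n = 5) and 0.80, 0.99, 0.73, 0.82 and 0.88 in Ag+Costim 1 to 5 (0.85 ± 0.10, SD, n = 5). Every Ag+Costim library was above every Ag library, by 0.62 on average (exact permutation p = 0.0079, adjusted p = 0.0476). The difference was 0.58 with length-scaled values, and 0.35 without Ag 1, Ag 3 and Ag 4, where no assignment could reach 0.05 (exact permutation p = 0.095, the smallest possible).

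Il12rb2 to Il12rb1 had a log2 ratio of -3.62, 0.65, 0.10, -3.07 and -0.60 in Ag 1 to Ag 5 and of 0.67, 0.42, 0.11, 0.47 and 0.30 in Ag+Costim 1 to 5. Ag 2 stood level with the highest Ag+Costim library, and Ag 1 and Ag 4 far below the rest. The means differed by 1.70 (exact permutation p = 0.071, adjusted p = 0.143), and by 0.37 without Ag 1, Ag 3 and Ag 4. Il2ra to Il2rg differed by 2.22 (exact permutation p = 0.048, adjusted p = 0.143) and Il2ra to Il2rb by 1.67 (exact permutation p = 0.13, adjusted p = 0.152), and these moved to 0.64 and 0.12 without the same 3 libraries. Il15ra to Il2rb was lower by a mean difference of -0.27 in Ag+Costim (exact permutation p = 0.13, adjusted p = 0.152). Il21r to Il2rg was -2.67 ± 0.07 in Ag libraries and -2.62 ± 0.20 in Ag+Costim libraries (SD, n = 5 each; exact permutation p = 0.67, adjusted p = 0.667).

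**Figure D4:**
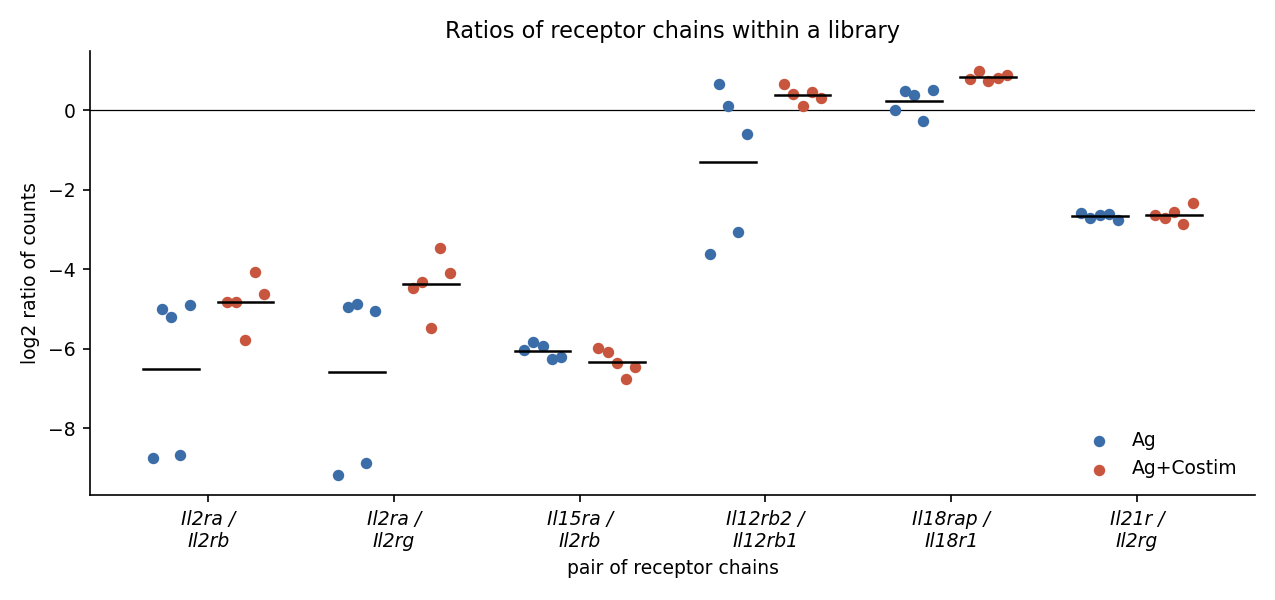
Log2 ratio of the counts of 2 receptor chains within each library, for 6 pairs, in Ag (blue) and Ag+Costim (red), with a black line at the group mean. The Ag+Costim libraries lay between 0.73 and 0.99 for Il18rap to Il18r1, above all Ag libraries, whereas Ag 1 and Ag 4 lay far below the other 8 libraries in the ratios of Il2ra and Il12rb2.

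Sequence showed what several of these chains share at the membrane. In the most abundant coding transcript of each gene, the stretch of 19 residues with the highest mean hydropathy beyond the first 40 residues, taken as the candidate membrane segment, lay mainly within 1 coding exon in 10 of 10 genes. The length of that exon is a multiple of 3 in Il18r1 and Il18rap. After division by 3 it left a remainder of 1 in 7 of the 10 and of 2 in Ifngr1, so that skipping the exon shifts the reading frame in these 8 genes. It is exactly 97 bases long in Il2rg, Il21r and Il12rb1, a length of 0.623% of 165374 internal coding exons of the annotation. That length was singled out because these genes have it, so the share is a description and not a test. The exons whose inclusion is described next are printed 5′ to 3′ on the gene's strand, from the GENCODE M21 transcripts, with the codon bases of the hydrophobic stretch in capitals. Their mm10 positions are chr8:70819325-70819421 (plus strand) for Il12rb1, chr7:125629738-125629834 (plus) for Il21r, chrX:101265630-101265726 (minus) for Il2rg and chr2:11730571-11730646 (plus) for Il15ra.
Il12rb1: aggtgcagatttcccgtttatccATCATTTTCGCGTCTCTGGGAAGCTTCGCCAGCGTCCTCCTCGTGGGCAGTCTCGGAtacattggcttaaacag
Il21r: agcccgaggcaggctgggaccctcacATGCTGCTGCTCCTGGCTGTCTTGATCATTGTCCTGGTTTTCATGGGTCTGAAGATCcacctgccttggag
Il2rg: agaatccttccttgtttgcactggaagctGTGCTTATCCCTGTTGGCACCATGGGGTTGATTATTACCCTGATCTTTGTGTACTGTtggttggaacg
Il15ra: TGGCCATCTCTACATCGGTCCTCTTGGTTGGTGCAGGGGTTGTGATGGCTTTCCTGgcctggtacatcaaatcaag

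Transcripts without this exon took the second largest share of the counts of Il12rb1 and Il21r. Il12rb1-205, which lacks exon 14 of 16, held 34.1, 22.1, 23.4, 36.3 and 26.4% of Il12rb1 counts in Ag 1 to Ag 5 (28.5% ± 6.41, SD, n = 5) and 25.7, 27.4, 27.4, 37.7 and 24.7% in Ag+Costim 1 to 5 (28.6% ± 5.24, SD, n = 5). The share was highest in Ag+Costim 4, Ag 4 and Ag 1, and the groups overlapped throughout. Il21r-202, which lacks exon 7 of 9, held 12.4, 14.2, 10.4, 13.9 and 19.8% of Il21r counts in Ag 1 to Ag 5 (14.1% ± 3.52, SD, n = 5) and 13.8, 15.4, 16.2, 16.7 and 14.2% in Ag+Costim 1 to 5 (15.3% ± 1.25, SD, n = 5). The annotated products are 668 in place of 738 residues for Il12rb1-205 and 268 in place of 529 for Il21r-202. The highest mean hydropathy of a stretch of 19 residues was 1.97 in the full Il12rb1 product and 0.88 in the shorter one, and 2.99 and 0.97 for Il21r. A mouse Il12rb1 form without its membrane segment is known from dendritic cells. The annotation types both transcripts as protein-coding, and no protein was measured in these files.

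The deposited splicing table, with 1 percent spliced in (PSI) value per group as a fraction, also had these exons skipped in both groups. For the Il12rb1 exon PSI was 0.809 in Ag and 0.764 in Ag+Costim, with a probability of a difference of 0.714 by Whippet, and for the Il21r exon 0.929 and 0.920, with a probability of 0.662. The corresponding inclusion from transcript counts was 71.1% ± 6.53 and 71.2% ± 5.27 for Il12rb1 and 82.7% ± 3.39 and 81.4% ± 0.953 for Il21r (SD, n = 5 each), so that the estimated transcripts gave lower inclusion than Whippet for both genes. For Il2rg the exon was included at PSI values of 0.947 and 0.949 and in 98.3% ± 0.28 and 98.2% ± 0.149 of the counts of transcripts that hold or span it. For Il15ra, PSI was 0.910 in Ag and 0.968 in Ag+Costim, with a probability of 0.865, the third highest of all receptor events, while transcript counts gave 99.3% ± 1.64 and 99.5% ± 0.649. In the other 6 genes no annotated transcript skipped the exon, and PSI was between 0.924 and 1 in both groups.

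**Figure D5:**
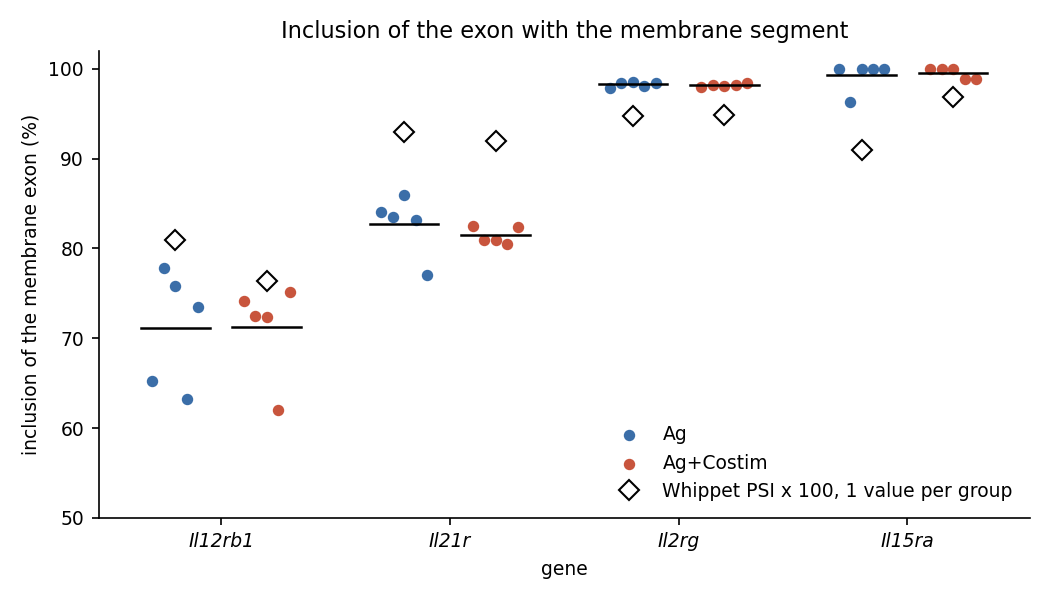
Inclusion of the exon with the candidate membrane segment in Il12rb1, Il21r, Il2rg and Il15ra, from transcript counts in each Ag (blue) and Ag+Costim (red) library with a black line at the group mean, and as the Whippet PSI times 100 (open diamonds, 1 per group). The axis starts at 50%. Il12rb1 inclusion ranged from 62 to 77.8% and Il21r inclusion from 77 to 85.9%, with overlap between the groups.

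Transcript usage did not pass the test in any receptor. With diffSpliceDGE of edgeR, called at an adjusted Simes p under 0.05 and a share change over 0.1 as a fraction, 0 of 10 receptors were called, against 0.297% of 10441 genes (31 genes). The lowest unadjusted gene-level p was 0.0421, for Il2rb (adjusted p = 0.718), where the main transcript Il2rb-201 moved from 99.9% to 99.6% of counts, and limma diffSplice also called 0 receptors. A single transcript held over 90% of the counts in 6 genes: Il2ra-201 (96.4% in Ag and 97.8% in Ag+Costim), Il2rb-201, Il2rg-201 (96.7 and 97.5%), Il12rb2-201 (96.4 and 98.9%), Il18rap-201 (99 and 99.5%) and Ifngr1-201 (92.3 and 91.5%). Ifngr1-203, which the annotation types as a target of nonsense-mediated decay, held most of the remainder of Ifngr1, at 7.09% ± 1.71 and 8.19% ± 1.33 (SD, n = 5 each). Il18r1-202 held 78.8% ± 4.09 and 77.3% ± 5.23 of Il18r1 counts, beside Il18r1-203 (12.7% ± 5.07 and 11.8% ± 6.04) and Il18r1-204 (5.05% ± 1.06 and 6.48% ± 2.05). Both shorter Il18r1 forms code for 372 in place of 537 residues and retain the hydrophobic stretch, so that what they lack lies after it, on the side of the signalling domain. Il12rb1-201 (70% ± 6.56 and 70.8% ± 5.24) and Il21r-201 (82.7% ± 3.39 and 81.4% ± 0.953) were the full forms of these genes.

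Il15ra was the most divided. All 18 annotated transcripts had counts, and 7 held over 5% in either group. The full form Il15ra-201 ranged from 21.7 to 72.1% in Ag and from 13.8 to 60.2% in Ag+Costim libraries, and the retained intron form Il15ra-208 from 2.1 to 32.3% and from 11.3 to 22.5%. Il15ra-210 (6.32% and 11.2% on average), Il15ra-214 (2.83% and 8.95%), Il15ra-217 (8.94% and 7.08%), Il15ra-218 (5.59% and 5.95%) and Il15ra-205 (3.4% and 6.63%) made up much of the rest. These shares come from a gene at 9.92 to 20 CPM, and the largest change of a mean share, -9 percentage points for Il15ra-201, was smaller than its SD in either group (22 and 23.8 points).

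None of the 134 receptor events of the splicing table passed the thresholds of 0.9 for the probability and 0.05 for the PSI difference together, against 1.05% of 138940 events. In 17 of them the PSI difference was over 0.05, and 2 had a probability over 0.9. These were the Il18rap exon chr1:40524216-40524382 (PSI 0.986 in Ag and 0.956 in Ag+Costim, probability 0.919), which holds the start of the coding sequence, and the Il18r1 exon chr1:40466161-40466269 (0.929 and 0.964, probability 0.905), which precedes it. The largest shift in PSI was between neighbouring start sites of Il18r1, where the node chr1:40465970-40466005 went from 0.563 to 0.323 and the adjoining node chr1:40466006-40466160 from 0.434 to 0.677, at probabilities of 0.768 and 0.760. As the table combines the libraries of a group, no spread between replicates can be given for these values.

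Promoters of 8 of the 10 receptors were in the RefSeq table of GRCm38.p6, with 11 start sites in all. Those of Il2ra and Il12rb2 are shown because these genes varied most between libraries, each as the 250 bases before the RefSeq start, 5′ to 3′ on the gene's strand. On both strands, 5 motifs were searched: the STAT motif TTCNNNGAA (GAS), the kB motif GGGANTNCC, the AP-1 motif TGANTCA, the T-box motif TCACACC and the Runx motif TGTGGT. Capitals mark the matches, which are kB in Il2ra (chr2:11642542-11642791, plus strand) and GAS in Il12rb2 (chr6:67376189-67376438, minus strand), and no match overlapped another.
Il2ra: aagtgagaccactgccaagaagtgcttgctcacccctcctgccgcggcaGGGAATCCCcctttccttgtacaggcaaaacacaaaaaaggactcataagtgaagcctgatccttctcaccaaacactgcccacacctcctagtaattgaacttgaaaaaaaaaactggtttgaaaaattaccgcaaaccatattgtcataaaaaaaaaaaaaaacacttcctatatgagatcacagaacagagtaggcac
Il12rb2: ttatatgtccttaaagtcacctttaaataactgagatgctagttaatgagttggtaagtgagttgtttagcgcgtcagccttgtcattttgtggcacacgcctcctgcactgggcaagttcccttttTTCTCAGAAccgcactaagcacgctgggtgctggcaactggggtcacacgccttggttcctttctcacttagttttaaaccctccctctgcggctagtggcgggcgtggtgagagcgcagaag
Windows of 250 bases held GAS in 7.02%, kB in 3.36%, AP-1 in 6.75%, T-box in 3.33% and Runx in 14% of all 32851 RefSeq starts. Among the receptors GAS was otherwise found in 1 of 3 Il18r1 starts, with 2 matches, Runx in Il21r and Il2rg, and AP-1 in 1 of 2 Il15ra starts. The windows of Il18rap and Ifngr1 held none of these letters. A match describes letters and not a bound site.

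Other genes of these pathways were counted from lists. Of 16 other cytokine receptors tested, 0 passed the adjusted p of edgeR, and 1, Ifngr2, had no overlap between the groups. Ifngr2 was lower in every Ag+Costim library, as for 1.13% of all genes tested. A log2FC above 0 was found in 3 of the 16. The median was -0.22, against 0.24 for genes of at least 10 CPM and -0.32 for all genes tested. Without Ag 1, Ag 3 and Ag 4 the log2FC changed sign in some, such as Il6st (-0.79 to 0.44) and Ifnar1 (-0.19 to 0.27). In others, such as Il7r (-0.58 to -0.19), it stayed below 0. Il6ra, the IL-6 binding chain, was at 54.8, 11.8, 18.6, 77.3 and 12.2 CPM in Ag 1 to Ag 5 and at 10.6 to 18.8 CPM in Ag+Costim libraries, so that it was high in the libraries where Il2ra and Il12rb2 were low. Its log2FC of -1.17 ± 0.52 (SE, adjusted p = 0.268, edgeR) was 0.40 without Ag 1, Ag 3 and Ag 4. Il1rl1, the receptor of IL-33, was at 1.15 to 15.4 CPM in Ag and 12.7 to 23.7 CPM in Ag+Costim libraries (log2FC 1.05 ± 0.55, SE, adjusted p = 0.296, edgeR).

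Ligands of these receptors were scarce in the sorted cells. All 8 were tested, 0 passed the adjusted p of edgeR, none lacked overlap between the groups with TMM factors, and the median log2FC was -1.05. This median has no settled direction. Without Ag 1, Ag 3 and Ag 4 the log2FC was 2.67 for Il15, 7.12 for Il12a, 8.66 for Il12b and 9.26 for Il21. It stayed below 0 for Il2, Ifng and Il7, and was below 0 for Il18. Ag 2 and Ag 5 held 0 CPM of Il12a, Il12b and Il21. Il18 was at 3.9 to 16.7 CPM in Ag and 7.52 to 10.6 CPM in Ag+Costim libraries, and Ifng at 4.09 to 11 and 4.56 to 6.67 CPM. Il2 was at 1.04 to 2.04 and 0.936 to 1.49 CPM, and Il15 at 0.00808 to 2.11 and 0.359 to 0.984 CPM. Il7, Il12a, Il12b and Il21 did not exceed 3.83 CPM in any library. Of these, Il7, Il12a, Il12b and Il15 were highest in Ag 3, the library that also had the highest B cell, erythroid and NK marker sums, and the part of other cells in these values was not tested.

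The JAK and STAT genes downstream were mostly well expressed. Of 11 tested, 0 passed the adjusted p of edgeR, 2 had no overlap, Stat5a and Stat5b, where 4.48% of all genes tested and 11.3% of those of at least 10 CPM had none in that direction. A log2FC above 0 was found in 10, and in 5 with total counts (median 0.28 and -0.06, against 0.24 and 0.00 for genes of at least 10 CPM). Stat5a, which IL-2 and IL-15 activate, was at 52.9, 82.3, 65.2, 60.9 and 60.3 CPM in Ag 1 to Ag 5 and at 93.4, 96.2, 103, 93.9 and 99 CPM in Ag+Costim 1 to 5. All Ag+Costim libraries lay above all Ag libraries, also with total counts (log2FC 0.59 ± 0.14, SE, adjusted p = 0.153, edgeR; 0.000279, DESeq2). Stat5b was at 110 to 164 CPM in Ag and 179 to 210 CPM in Ag+Costim libraries (log2FC 0.47 ± 0.15, SE, adjusted p = 0.219, edgeR; 0.0553, DESeq2), with overlap under total counts. Jak1 (858 to 1044 and 844 to 1117 CPM), Jak3 (181 to 286 and 236 to 317 CPM), Jak2 (21.5 to 38.7 and 26.9 to 42.9 CPM), Tyk2 (68.2 to 153 and 108 to 141 CPM) and Stat6 (175 to 231 and 219 to 290 CPM) overlapped between the groups.

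Of 7 genes of IL-18 receptor signalling, 0 passed the adjusted p of edgeR, 1 had no overlap, near the 11.3% of genes of at least 10 CPM, and 4 had a log2FC above 0 (median 0.18). The gene without overlap was Traf6, the ubiquitin ligase that relays the signal of Myd88, at 29.9, 33.3, 29.4, 29.3 and 25.4 CPM in Ag 1 to Ag 5 and 49.5, 41.2, 42.5, 52 and 45.4 CPM in Ag+Costim 1 to 5. The groups were apart with TMM factors and overlapped with total counts, where its log2FC went from 0.65 to 0.35 (SE 0.12, adjusted p = 0.134, edgeR; 0.0033, DESeq2; 0.0311, edgeR without Ag 1, Ag 3 and Ag 4). The kinase Map3k7 (23.9 to 36.5 and 26.8 to 50.6 CPM) and its adaptor Tab2 (20.3 to 31.7 and 19.5 to 24.2 CPM) overlapped. Of 17 negative regulators, 0 passed the adjusted p of edgeR and 0 had no overlap, and the phosphatase Ptpn2 (52.3 to 123 and 98.5 to 126 CPM) and Pias2 (20.5 to 31.5 and 31.3 to 36.9 CPM) had the largest log2FC at 10 CPM or more, 0.39 and 0.35, against 0.24 for the median gene of that level.

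Of 18 regulators and targets of these receptors, 0 passed the adjusted p of edgeR, 2 had no overlap, Myc and Irf4, about the share of genes of at least 10 CPM (11.3%), and 11 had a log2FC above 0 (median 0.47, and 0.26 with total counts). Myc, a driver of cell growth, was at 58.1, 70.9, 49.6, 46.6 and 80.2 CPM in Ag 1 to Ag 5 and at 96.5, 98.3, 99.9, 101 and 109 CPM in Ag+Costim 1 to 5. The groups were apart also with total counts (log2FC 0.72 ± 0.16, SE, adjusted p = 0.149, edgeR; 0.00113, DESeq2). Irf4, a transcription factor that T cell receptor signals induce, was at 7.95 to 20.6 CPM in Ag and 25.5 to 38.5 CPM in Ag+Costim libraries (log2FC 0.86 ± 0.25, SE, adjusted p = 0.201, edgeR; 0.0278, DESeq2), and its groups overlapped with total counts. Tbx21, which encodes the effector regulator T-bet, was at 74.7, 364, 250, 107 and 405 CPM in Ag 1 to Ag 5 and at 380 to 483 CPM in Ag+Costim libraries, low in the same Ag 1 and Ag 4 as Il12rb2. Its groups overlapped with TMM factors and did not with total counts. Irf8, a related interferon regulatory factor, was likewise lowest in Ag 1 and Ag 4, at 19.6 to 69 CPM in Ag and 62.6 to 80 CPM in Ag+Costim libraries.

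Genes with the most similar profile were sought among 8626 genes with a mean of at least 10 CPM, by Pearson correlation of log2 CPM over the 10 libraries. The correlation contains the difference between the groups as well as that among the Ag libraries, for Il2ra and Il12rb2 mainly that of Ag 1 and Ag 4, and is given as a description. The most alike were Selenoi (0.997) and Galnt3 (0.994) for Il2ra, the mitotic spindle gene Aspm (0.995) and Arhgef39 (0.995) for Il12rb2, Atl2 (0.984) and Ifi211 (0.981) for Il12rb1, and Ubxn2a (0.991) and the histone methyltransferase gene Ezh2 (0.990) for Il18rap. For Il2rb they were Zcchc8 (0.990) and Lrrfip1 (0.989), for Il2rg Sdf4 (0.988) and Creb3 (0.985), for Il21r Rnf25 (0.951) and Cyren (0.95), for Il15ra Chsy1 (0.941) and Rbms1 (0.917), for Il18r1 Srfbp1 (0.961) and Gna13 (0.936), and for Ifngr1 Gem (0.956) and Phf11a (0.954).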

How the data were processed

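Poly(A) RNA of sorted CD8+ T cells was made into libraries with SMART-Seq v4 and Nextera XT, a preparation that does not mark strand. The authors aligned reads to mm10 with HISAT2 2.1.0, sorted them with SAMtools 1.9 and counted with StringTie 2.1.0. The deposited gene and transcript values are estimated counts (expected counts) without normalization, derived from read coverage, so totals are not numbers of reads. They were rounded to whole numbers here. The authors also ran Whippet, and the deposited table holds 1 PSI fraction per group with the libraries combined, the difference of both, given as a score with the sign of Ag less Ag+Costim, and a second score, the probability that Whippet assigns to a difference. All differences are given here as Ag+Costim minus Ag. Lane and input sheets were not used.

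Entries without a gene identifier held 0.0458 to 0.308% of counts and were left out. Gene counts were fitted with edgeR 4.0.16 (quasi-likelihood, filterByExpr, TMM), limma 3.58.1 and DESeq2 1.42.0 in R 4.3.3, transcript usage with diffSpliceDGE, and chain ratios (0.5 added to each count) with exact permutations. The fits were tested on simulated counts with the same dispersion in both groups, and so not under the wider spread among the Ag libraries. TPM used annotated transcript lengths. A transcript is named above a mean share of 5%, an event past both thresholds or, with none past them, if it is among the 3 with the highest probability. From each pathway list up to 3 genes without overlap and the lowest p are named, then up to 2 of at least 10 CPM with the largest log2FC, and the kinases, Ifngr2 and the ligands in any case. The Il18r1 start sites and the other events named beside the exons were chosen after their values were seen, and the kB motif was shortened after a longer one had been searched. The receptors, the lists and the tests were chosen with earlier results of these data known. The study calls the libraries biological replicates. Ag 3 had the lowest total of estimated counts, 59.6 M, and the most genes with a count, 51778. How far depth limited low genes in each library was not tested.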

Additional observations from a re-analysis of the deposited data

Results flagged for a closer look

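In groups of 5 libraries, the highest or lowest value was set against Dixon's critical value of 0.71 for its gap to the next library as a share of the group's range, which chance passes in about 1 of 20 groups, and 12 of 184 groups of values passed it. Ag+Costim 4 stood apart in Il12rb1 splicing, with 61.6% of Il12rb1 counts on Il12rb1-201, 37.7% on Il12rb1-205 and 62% inclusion of the exon with the membrane segment, which are 3 views of 1 difference. Il18r1 was highest in Ag 4 per unit of length, at 47.8 TPM. Il15ra exon inclusion from transcript counts was lowest in Ag 2, at 96.3%, with the other 4 Ag libraries at 100%. Ag 3 was the highest Ag library for Il12b (3.83 CPM), Il7 (2.66 CPM), the NK cell markers (23.2 CPM summed) and the erythroid markers (1103 CPM summed). Irf4 was lowest in Ag 1 (7.95 CPM), Jak1 highest in Ag 4 (1044 CPM) among the Ag libraries, and Pias2 highest in Ag+Costim 3 (36.9 CPM) among the Ag+Costim libraries.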

How the results depend on the processing

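The number of receptors called higher was 0 with edgeR and stayed 0 in each fit that left out 1 library, in the 3 other scalings, without a filter on low counts and with the replicate block. It was 2 without the 3 Ag libraries with the most genes detected, 2 with DESeq2 and 7 with weighted limma voom. The number without overlap, 3, was 3 to 4 when 1 library was left out, 2 with total counts and 4 with no filter, which added Il18r1. The share of all genes without overlap is not given for these alternatives. The median log2FC of genes of at least 10 CPM was 0.24 in the main fit, 0.00 with total counts and 0.56 with no filter. With no filter the log2FC was 0.89 for Il2rb, 0.63 for Il15ra, 0.35 for Il21r, 0.28 for Il2rg, 1.03 for Il12rb1, 0.52 for Il18r1 and 0.65 for Ifngr1, each over 1.5 times that with the filter. Il2rg reversed to -0.12 with DESeq2 size factors, -0.25 with total counts, -0.23 with upper quartile scaling and -0.12 with the DESeq2 test, and to -0.22 without the 3 libraries. Il21r reversed to -0.07, -0.20, -0.17, -0.06 and -0.08 in the same order, and Il18r1 to -0.06 with total counts and -0.03 with upper quartile scaling. Without the 3 libraries, Il15ra reversed to -0.01 and Ifngr1 to -0.17. When 1 library was left out, the log2FC of Il2rg ranged from -0.11 to 0.12 and that of Il21r from -0.04 to 0.16, and no other receptor changed sign. The cause was not tested.

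For the chain ratios, the difference of Il18rap to Il18r1 ranged from 0.50 to 0.69 when 1 library was left out, but 4 against 5 libraries cannot go below an exact p of 0.016, and after adjustment over 6 ratios it passed only where another ratio also reached that p. It was 0.35 without the 3 libraries, an alternative chosen after seeing the data. The other ranges were 1.11 to 2.07 for Il2ra to Il2rb and 1.57 to 2.65 for Il2ra to Il2rg, both past the threshold without Ag+Costim 3, 1.12 to 2.19 for Il12rb2 to Il12rb1, past it without Ag 2, -0.36 to -0.17 for Il15ra to Il2rb and -0.03 to 0.11 for Il21r to Il2rg, which reversed without Ag+Costim 5. Calls of transcript usage (0) and of splicing events (0, also at a probability over 0.95) were unchanged in the alternatives run for them.

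Libraries with the same replicate number shared only that number. Their deviations from the group means correlated at 0.251, 0.133, -0.102, -0.303 and 0.117 for numbers 1 to 5, so the numbers were not treated as pairs. With the replicate block, 0 receptors were called in expression and 0 in usage. The difference of Il18rap to Il18r1 was 0.62 with sign flips within numbers (exact p = 0.062, where 0.0625 is the smallest possible), and none of the 6 ratios could pass.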
